A study of Homo sapiens with 6 samples.

Results

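Expression of 9 genes tied to p53 was followed: MDM2 and MDM4, which restrain p53, and GDF15, SESN1, SESN2, PLK2, ZMAT3, TP53I3 and RRM2B, which p53 can switch on. They were chosen by gene symbol, and every probe that the array's annotation gives one of these symbols was read, which made 9 of 20046 named genes and 14 of 47323 probes. The p53 gene itself was not analysed here. All samples were Rh30 cells, an established line of alveolar rhabdomyosarcoma, a childhood tumour with features of skeletal muscle. Cells in 3 samples received a scrambled control siRNA and cells in the other 3 an siRNA against P/CAF (siP/CAF), and RNA of both groups was taken after 72 h. P/CAF is an acetyltransferase whose gene is KAT2B. The study used a single cell line, and the sources used here do not say how many siRNA sequences were pooled. Whether each sample was a culture of its own is not stated in the labels. The p-values therefore rest on the spread among these samples, and that spread may be technical.

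P53 is a transcription factor that stops the cell cycle, helps repair DNA or starts cell death after damage. MDM2 is the ubiquitin ligase that marks p53 for degradation, and MDM4 is its relative that blocks p53's activating region; since p53 also switches on MDM2, the pair forms a negative feedback loop. P/CAF is known to acetylate p53 and to act as its coactivator. Rh30 is commonly listed as a line with a mutated p53 gene, which is background here and was not examined.

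The promoters of 3 members are shown because these genes are the feedback gene of the loop and the members with the largest differences. Only the 250 bases before a start were searched. There they hold, or for GDF15 do not hold, letters of the element that p53 binds. Each line gives the 250 bases before a transcription start, 5′ to 3′ on the gene's strand, from RefSeq on GRCh38.p14. Capitals mark an exact p53 half-site consensus (10 letters) or a full element of 2 adjoining half-sites with at most 3 mismatches. The consensus is its own reverse complement, so that both strands are covered. The start used for MDM2 is its inner one, which is known to respond to p53.
MDM2, chr12:68808767-68809016, plus strand: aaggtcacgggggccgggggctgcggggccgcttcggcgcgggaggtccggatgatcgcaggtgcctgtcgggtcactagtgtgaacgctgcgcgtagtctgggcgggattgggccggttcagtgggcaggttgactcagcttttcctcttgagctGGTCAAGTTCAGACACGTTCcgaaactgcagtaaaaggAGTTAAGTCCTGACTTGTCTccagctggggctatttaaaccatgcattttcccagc
PLK2, chr5:58460087-58460336, minus strand: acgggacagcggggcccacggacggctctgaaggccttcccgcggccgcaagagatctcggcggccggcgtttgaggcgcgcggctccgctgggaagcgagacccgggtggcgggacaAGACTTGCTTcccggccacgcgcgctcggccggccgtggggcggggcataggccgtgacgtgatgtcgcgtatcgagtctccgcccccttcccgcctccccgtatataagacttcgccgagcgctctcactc
GDF15, chr19:18385908-18386157, plus strand: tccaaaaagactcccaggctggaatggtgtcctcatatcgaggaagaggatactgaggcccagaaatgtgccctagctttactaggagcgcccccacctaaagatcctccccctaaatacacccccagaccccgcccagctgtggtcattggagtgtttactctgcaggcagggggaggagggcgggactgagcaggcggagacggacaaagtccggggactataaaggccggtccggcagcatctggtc
The MDM2 stretch held 2 full elements, with 2 and 3 mismatches, whose first bases lay 94 and 56 bases before the start. RefSeq gives MDM2 4 promoters: another inner one overlaps this stretch and holds the same 2 elements, and the 2 outer ones held neither kind of match. The PLK2 stretch held 1 exact half-site, beginning 132 bases before the start. One of 3 SESN1 promoters held a full element with 3 mismatches, GGACAAGTCTCCACAAGTCA at chr6:109009018-109009037 on the minus strand. It includes an exact half-site. RefSeq promoters were matched for 8 of the 9 members, and those of MDM4, GDF15, SESN2, ZMAT3 and TP53I3 held neither kind of match in this window. Among 35114 promoters of all genes, 5.57% held an exact half-site and 4.36% a full element. RRM2B was not searched, nor were bases after a start or further before it. A match is a description of letters and not a site shown to be bound.

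Each sample was read on 1 Illumina HT-12 bead array of 1 colour. Between 20891 and 21421 of 47323 probes were detected per array, and the weakest detected signal lay between 84.9 and 95.7. Signals were background-corrected, quantile normalised and put on a log2 scale, and 11806 named genes had a probe detected on at least 3 arrays. The siRNA's target fell: the signals of KAT2B were 749, 608 and 1093 in control arrays 1 to 3 and 178, 172 and 136 in siP/CAF arrays 1 to 3, a 6.83-fold fall (log2 difference -2.77, SE 0.22; limma, Benjamini-Hochberg adjusted p = 1.91e-04). A dimmer KAT2B probe was detected on 2 control arrays and on no siP/CAF array, and was not tested. Of 11 markers of muscle and rhabdomyosarcoma, 10 were detected on all 6 arrays and TFAP2B on none. Their summed signals were 50876 to 73890 in control and 53813 to 59413 in siP/CAF arrays. ACTC1 was the brightest of them, with signals of 22250 to 32746, so the sums can hide changes of dimmer markers. On the log2 scale MYOG averaged 11.76 in control and 10.10 in siP/CAF arrays, and TNNI1 7.66 and 6.43. ACTC1, at 14.73 and 14.88, was the only detected marker with a higher siP/CAF mean. These means are descriptive. The epithelial markers EPCAM and CDH1, the leukocyte markers PTPRC and CD3E and the endothelial marker VWF were detected on no array, whereas the leukocyte markers CD14 and CD68, the endothelial marker PECAM1 and the fibroblast marker COL1A1 were detected on all 6. The epithelial markers KRT8 and CLDN4 and the fibroblast marker COL1A2 were detected on 3 arrays each. The leukocyte marker LCP1 and the endothelial marker CDH5 were detected on 2 each. The endothelial marker TEK and the fibroblast markers DCN and LUM were detected on 1 each. The part of these markers in the results was not tested. Summed signals over the marker lists were 463 to 551 against 515 to 537 for epithelial cells, 1088 to 1230 against 1194 to 1285 for leukocytes, 766 to 1025 against 702 to 783 for endothelial cells and 563 to 635 against 566 to 572 for fibroblasts.

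One of the 9 members changed after siP/CAF. PLK2 rose 1.88-fold, while GDF15 measured 1.75-fold lower and narrowly missed the threshold, and the other 7 members differed by less than 1.5-fold in either direction. The share called, 11.1% of the members, stands beside a background of 5.37% of all tested genes called in either direction, and beside 2.28% called higher and 3.09% called lower. Members were chosen with earlier results of these data known, so their share is descriptive. A gene was called at an adjusted p under 0.05, with adjustment over all 21232 tested probes, and was represented by its brightest tested probe. Of the 14 probes 13 were tested, at least 1 for each member, so all 9 members could be called. By probe, 1 of the 13 tested was called, beside 4.58% of all tested probes. Differences are siP/CAF minus control siRNA on the normalised log2 scale, with means ± SD over 3 arrays a group. In these bulk samples, fewer cells of a kind and less RNA per cell cannot be told apart. The normalisation adds an offset of 16, which compresses differences at dim probes.

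**Figure D1:**
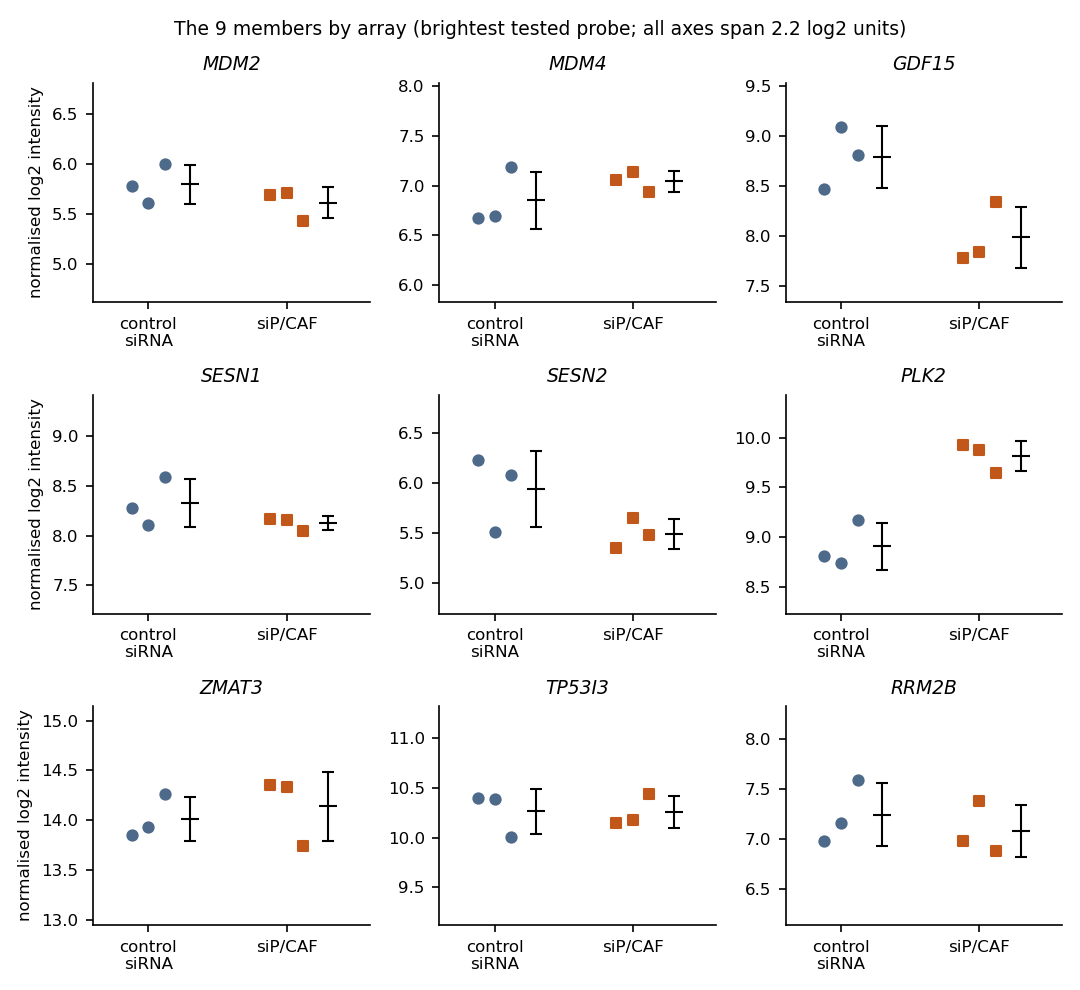
Normalised log2 intensity of the brightest tested probe of each member (y axis, spanning the same width in each panel) in 3 control siRNA arrays (blue circles, arrays 1 to 3 from left to right) and 3 siP/CAF arrays (orange squares, likewise), with the mean and SD of each group beside the points. The groups are apart for GDF15 (means 8.79 and 7.99) and PLK2 (means 8.91 and 9.82) and overlap for the other 7 genes.

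Neither restrainer of p53 passed the test. MDM2 gave signals of 119, 95.5 and 126 in control arrays 1 to 3 and of 110, 109 and 99.9 in siP/CAF arrays 1 to 3. These signals stood only slightly above the weakest detected signal of each array, and the groups overlapped. On the normalised scale MDM2 measured 5.80 ± 0.19 (SD, n = 3) in control and 5.61 ± 0.16 (SD, n = 3) in siP/CAF arrays, a log2 difference of -0.18 with a 95% interval of -0.55 to 0.19 (limma, Benjamini-Hochberg adjusted p = 0.630). As a ratio of siP/CAF to control the interval ran from 0.681 to 1.14. A second MDM2 probe, with signals of 64.9 to 86.2, was not well above background on any array and gives no fold.

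MDM4 gave signals of 177, 140 and 218 in control arrays 1 to 3 and 190, 198 and 171 in siP/CAF arrays 1 to 3. By signal, control array 3 was the brightest of all 6 and control array 2 the dimmest, so the siP/CAF arrays lay inside the control range. MDM4 measured 6.85 ± 0.29 (SD, n = 3) and 7.04 ± 0.10 (SD, n = 3) on the normalised log2 scale, a difference of 0.19 with a 95% interval of -0.21 to 0.58 (limma, Benjamini-Hochberg adjusted p = 0.645).

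PLK2, a polo-like kinase that p53 induces and that acts in centriole duplication, was higher in every siP/CAF array than in any control array. Its signals were 574, 411 and 702 in control arrays 1 to 3 and 1011, 1001 and 801 in siP/CAF arrays 1 to 3. Control array 3 was the brightest control and siP/CAF array 3 the dimmest treated array, so the gap between the groups lies between these. On the normalised log2 scale the means were 8.91 ± 0.24 (SD, n = 3) and 9.82 ± 0.15 (SD, n = 3), a difference of 0.91 with an SE of 0.17 and a 95% interval of 0.53 to 1.29 (limma, Benjamini-Hochberg adjusted p = 0.0183). The ratio of siP/CAF to control was 1.88, with an interval of 1.44 to 2.45. PLK2 was no longer called in limma without control array 1 (difference 0.86, adjusted p = 0.0826) or control array 2 (0.82, adjusted p = 0.0632). The same was true without siP/CAF array 1 (0.85, adjusted p = 0.0908) or siP/CAF array 2 (0.88, adjusted p = 0.0696). The call held without control array 3 (1.05, adjusted p = 0.0103) and siP/CAF array 3 (0.99, adjusted p = 0.0300).

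GDF15, a secreted stress cytokine of the TGF-beta family that p53 induces, lay lower in every siP/CAF array than in any control array. Its signals were 466, 506 and 557 in control arrays 1 to 3 and 275, 287 and 353 in siP/CAF arrays 1 to 3. After normalisation control array 2 was the brightest (9.09) and control array 1 the dimmest control (8.47), and siP/CAF array 3 was the brightest treated array (8.34), which leaves a narrow gap. The group means were 8.79 ± 0.31 (SD, n = 3) and 7.99 ± 0.31 (SD, n = 3) on the log2 scale, a difference of -0.80 with an SE of 0.21 and a 95% interval of -1.27 to -0.33 (limma, Benjamini-Hochberg adjusted p = 0.0633). The ratio of siP/CAF to control was 0.573, with an interval of 0.413 to 0.795. The 95% interval excludes 0 because it is for this gene alone, whereas the adjusted p counts all probes tested. GDF15 passed in 8 of 16 alternative settings, among them without background correction (limma, adjusted p = 0.0428), with arrays scaled to one median (0.0165), with the authors' deposited matrix values (0.0415) and without siP/CAF array 3 (0.0446), and its limma adjusted p reached 0.223 without siP/CAF array 1.

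**Figure D2:**
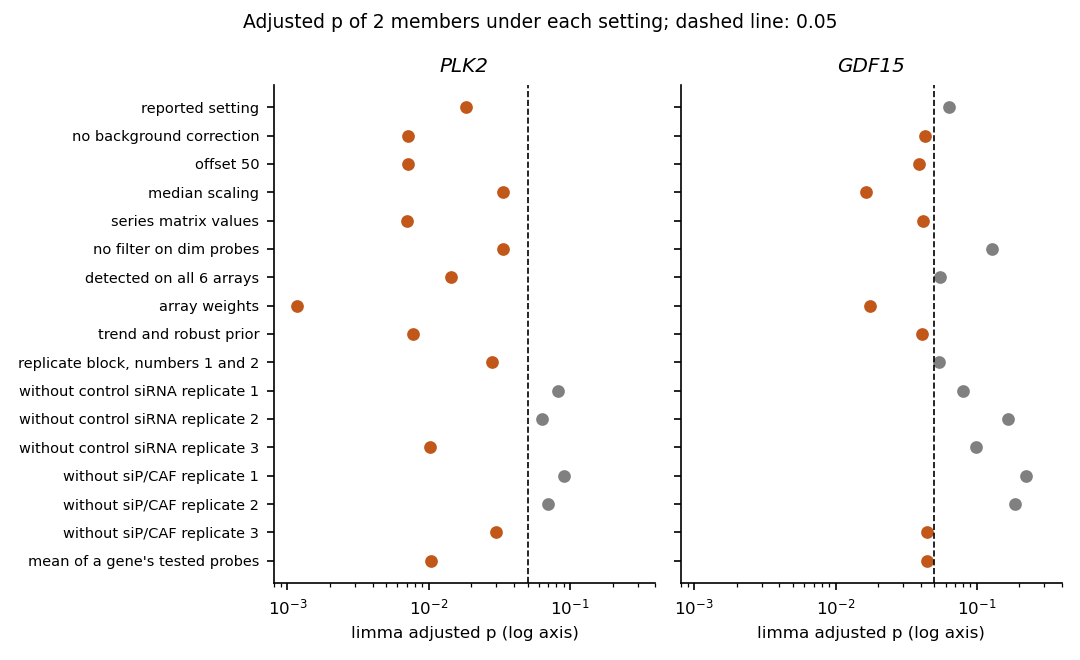
Adjusted p of PLK2 (left) and GDF15 (right) from limma on a log axis under the reported setting and 16 alternatives (y axis), where orange points lie under the threshold of 0.05 (dashed line) and grey points above it. PLK2 passes in 12 of the 16 alternatives and GDF15 in 8.

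The sestrins, stress proteins that restrain mTORC1 and help clear peroxides, did not pass. SESN1 gave signals of 417, 285 and 483 in control arrays 1 to 3 and 340, 345 and 299 in siP/CAF arrays 1 to 3. All siP/CAF signals lay between the dimmest and the brightest control array. After normalisation siP/CAF array 3 was the lowest of all 6 and the others overlapped. The group means were 8.32 ± 0.24 and 8.13 ± 0.07 (SD, n = 3), a difference of -0.20 with a 95% interval of -0.57 to 0.17 (limma, Benjamini-Hochberg adjusted p = 0.597).

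SESN2, which is induced by p53 and also by the amino-acid stress factor ATF4, gave signals of 144, 92.8 and 130 in control arrays 1 to 3 and 99.1, 106 and 101 in siP/CAF arrays 1 to 3. By signal control array 2 was the dimmest of all 6, and the other 2 control arrays lay above every siP/CAF array. After normalisation control array 2 lay above siP/CAF arrays 1 and 3 and below siP/CAF array 2. SESN2 measured 5.94 ± 0.38 and 5.49 ± 0.15 (SD, n = 3) on the log2 scale, a difference of -0.45 with a 95% interval of -0.91 to 0.01 (limma, Benjamini-Hochberg adjusted p = 0.273). Over the fits that left out 1 array the difference ran from -0.68 without control array 2 to -0.30 without control array 1 (limma, adjusted p = 0.0901 and 0.564), and without background correction it was -0.22 (0.393).

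ZMAT3, a zinc-finger RNA-binding protein induced by p53, was read by 3 probes that differed in sign. The brightest gave signals of 16207, 14470 and 17577 in control arrays 1 to 3 and 20677, 20118 and 14924 in siP/CAF arrays 1 to 3, so that 2 siP/CAF arrays lay above every control and siP/CAF array 3 inside the control range. After normalisation siP/CAF array 3 was the lowest of all 6 and the groups overlapped. Its log2 difference was 0.13, with a 95% interval of -0.33 to 0.58 (limma, Benjamini-Hochberg adjusted p = 0.817). A second probe of the same transcript record measured -0.13 (adjusted p = 0.718 in limma). The third, designed on another transcript record, gave 1397, 928 and 1792 in control and 1006, 1099 and 810 in siP/CAF arrays 1 to 3. After normalisation its siP/CAF values of 9.92, 10.01 and 9.67 lay below the lowest control, 10.03, by a small margin, and its difference was -0.43 with a 95% interval of -0.88 to 0.01 (adjusted p = 0.279 in limma). Whether the probes read different isoforms was not tested.

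TP53I3, an oxidoreductase gene of p53-driven cell death, gave, on its brightest probe, signals of 1613, 1184 and 1170 in control arrays 1 to 3 and 1172, 1227 and 1370 in siP/CAF arrays 1 to 3. By signal control array 1 was the brightest of all 6 and the rest overlapped. After normalisation siP/CAF array 3 was the highest (10.44), just above control array 1 (10.40), and the groups overlapped. The difference was -0.01 with a 95% interval of -0.39 to 0.37 (limma, Benjamini-Hochberg adjusted p = 0.986). A dimmer TP53I3 probe, with signals of 88.1 to 122 near the detection limit, measured -0.24 (adjusted p = 0.606 in limma).

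RRM2B, the p53-induced small subunit of ribonucleotide reductase that supplies nucleotides for DNA repair, gave signals of 203, 173 and 271 in control arrays 1 to 3 and 183, 222 and 167 in siP/CAF arrays 1 to 3. Control array 3 was the brightest and siP/CAF array 3 the dimmest, with the other 4 arrays interleaved. Both RRM2B probes measured alike, -0.16 with a 95% interval of -0.62 to 0.29 on the brighter and -0.16 with -0.59 to 0.26 on the dimmer (limma, Benjamini-Hochberg adjusted p = 0.748 and 0.735).

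**Figure D3:**
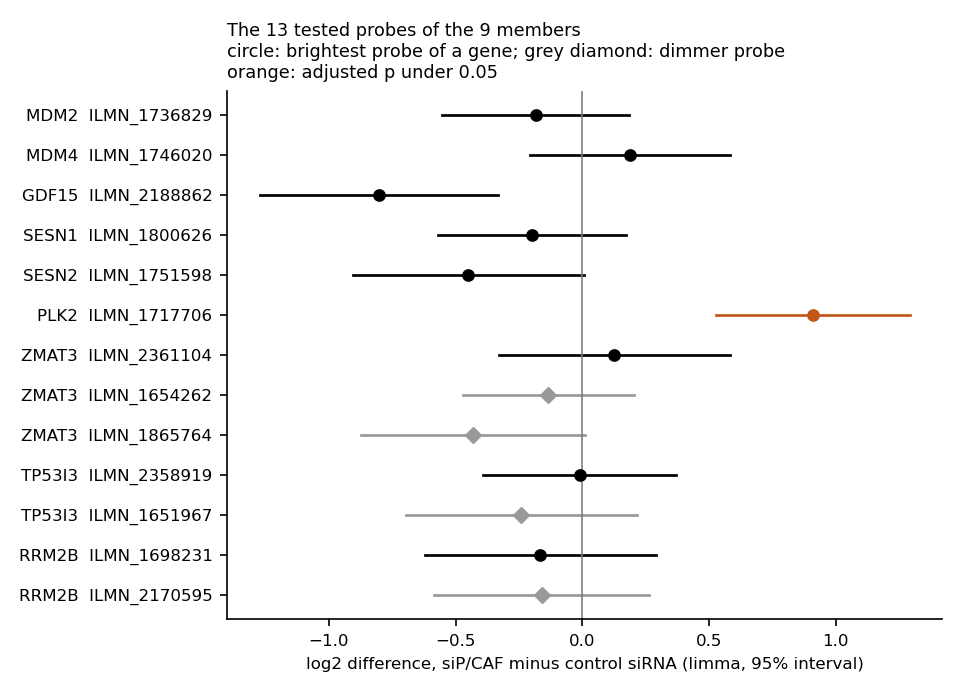
Log2 difference of siP/CAF minus control siRNA (x axis) with its 95% interval from limma for the 13 tested probes of the 9 members (y axis). Circles are the brightest probe of each gene, grey diamonds dimmer probes, and orange marks an adjusted p under 0.05. The PLK2 interval (0.53 to 1.29) lies above 0 and the GDF15 interval (-1.27 to -0.33) below it, and the other 11 intervals include 0.

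The 9 members did not share a direction. By sign 3 were above 0 and 6 below, with a median difference of -0.16, beside -0.01 over all 11806 tested genes. The sign of MDM2, ZMAT3, TP53I3 and RRM2B turned in 1, 1, 4 and 3 of the 16 alternatives, without a call. Their median size of difference without regard to sign was 0.19, the same as over all tested genes. Of the members 2 had an unadjusted p under 0.05 in limma and 2 had groups that did not overlap (22.2%), beside 20.6% and 27.7% of all tested genes. For the other 7 members the 95% intervals lay between ratios of 0.533 and 1.5. Measured changes of 2-fold lie outside them, while some smaller ones do not. MDM2 and SESN2 lie near background, where differences are compressed, so for them a 2-fold change of RNA is not placed outside the interval. Among the controls, array 3 lay above the control mean for 8 of the 9 members, by a median of 0.25 on the log2 scale against 0.07 over all tested genes. Its part in the results was not tested beyond leaving it out.

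Other genes of the pathway were read from lists of reported p53 targets and p53 regulators. Of 76 tested targets in 5 lists, 3 rose and 4 fell (9.21%, beside the background of 5.37%), with a median of -0.01. The lists were chosen with earlier results of these data known, so the share is descriptive. The 4 that fell include SULF2, which passed the detection filter only through the control arrays. Growth-arrest targets held no call among 8 tested, with 2 under 0.05 by limma's unadjusted p and a median of -0.21. Over all tested genes 20.6% were under 0.05 by that p-value, which is the background for each such count here. CDKN1A, the p21 inhibitor of cyclin-dependent kinases, measured -0.58 (limma, Benjamini-Hochberg adjusted p = 0.0523), CCND1 -0.41 and SERTAD1 0.39. CDKN1A passed in 8 of 16 alternatives, for example without background correction (limma, adjusted p = 0.0162). Apoptosis targets held no call among 16, with 3 under 0.05 by limma's unadjusted p and a median of -0.02. On brightest probes, their smallest p-values went to the BH3-only gene PMAIP1 (0.45), PIDD1 (-0.46) and the death receptor gene TNFRSF10B (0.47). The adjusted p-values of these genes were 0.110, 0.161 and 0.169 in limma. Dimmer TNFRSF10B probes measured 0.75 and 0.31 (limma, adjusted p = 0.0626 and 0.316). DNA repair targets held no call among 7, 0 under 0.05 by limma's unadjusted p and a median of -0.11. The nucleotide excision repair gene XPC measured -0.32, REV3L -0.32 and DDB2 -0.27.

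Metabolic and redox targets held 1 call among 15 (6.67%, beside the background of 5.37%) and a median of 0.20. DRAM1, a lysosomal protein that promotes autophagy, rose from 8.35 ± 0.11 to 9.40 ± 0.05 (SD, n = 3), a log2 difference of 1.05 (limma, Benjamini-Hochberg adjusted p = 0.00441), and it passed in each of the 16 alternatives run. ABHD4 measured 0.53 (adjusted p = 0.112 in limma). CMBL was not well above background on any siP/CAF array and at least 1.11-fold lower there, without passing (adjusted p = 0.0784 in limma), and it too entered the test only through the control arrays.

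Among 30 other targets 2 rose and 4 fell (20%, beside the background of 5.37%), with a median of -0.02. The phosphatase gene DUSP1, also an immediate-early gene, rose by 1.33 and FAM210B fell by 0.94 (limma, Benjamini-Hochberg adjusted p = 0.00206 and 0.00761), and both passed in all 16 alternatives run. The sulfatase gene SULF2 was not well above background on any siP/CAF array and at least 1.55-fold lower (limma, adjusted p = 0.0150). That is the only tested one of 3 SULF2 probes. The others, with signals of 65.2 to 87.6 and of 60.2 to 88.6, were detected on no array of either group. SULF2 entered the test only through the control arrays, where it was detected on all 3, so a difference in this direction came with the filter. When detection on all 6 arrays was required, 5 of 29 tested genes of the list were called. MYBPHL measured -1.09, ARHGEF3 -0.68 and the matricellular gene THBS1 0.72, all called (adjusted p = 0.0408, 0.0372 and 0.0460 in limma). The number called in the list was 3 without the first or the second control array or the first siP/CAF array, and 2 without the second siP/CAF array. ARHGEF3 lost its call without any 1 array (limma, adjusted p up to 0.122) and THBS1 without each array except control array 3 (up to 0.164). MYBPHL lost it without the array numbered 1 or 2 of either group (up to 0.139), and SULF2 without siP/CAF array 2 (0.0592).

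Regulators of p53 held no call among 21 tested on their brightest probes, beside the background of 5.37%. By limma's unadjusted p 2 were under 0.05, beside 20.6% of all tested genes, and the median was -0.06. The checkpoint kinase gene CHEK2 measured -0.40, and the acetyltransferase genes CREBBP and EP300, which like P/CAF can acetylate p53, -0.39 and -0.40 (limma, Benjamini-Hochberg adjusted p = 0.167, 0.199 and 0.356). A dimmer CREBBP probe fell by 0.91 (limma, adjusted p = 0.0259). TP73, the p53 relative read here, was detected on fewer than the 3 arrays that testing required, and was not tested.

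Because SESN2 and GDF15 also answer to ATF4, the genes of that amino-acid stress response were read beside them. Of 20 tested, 2 rose and 1 fell (15%, beside the background of 5.37%), with a median of -0.04. This list too was chosen with earlier results known, and its share is descriptive. The eIF2-alpha phosphatase subunit gene PPP1R15A rose by 0.96 and the secreted glycoprotein gene STC2 by 0.86, and the mTORC1 inhibitor gene DDIT4 fell by 0.72 (limma, Benjamini-Hochberg adjusted p = 0.0175, 0.0154 and 0.0318). None of the 3 was called without the array numbered 1 or 2 of either group, when their limma adjusted p-values reached 0.0718, 0.0746 and 0.130, and DDIT4 also lost its call without siP/CAF array 3 (0.0683). ATF4 itself measured 0.13 and DDIT3, its effector in cell death, -0.04 (limma, adjusted p = 0.712 and 0.962). GDF15 and SESN2 measured -0.80 and -0.45 in the same fit, without passing.

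**Figure D4:**
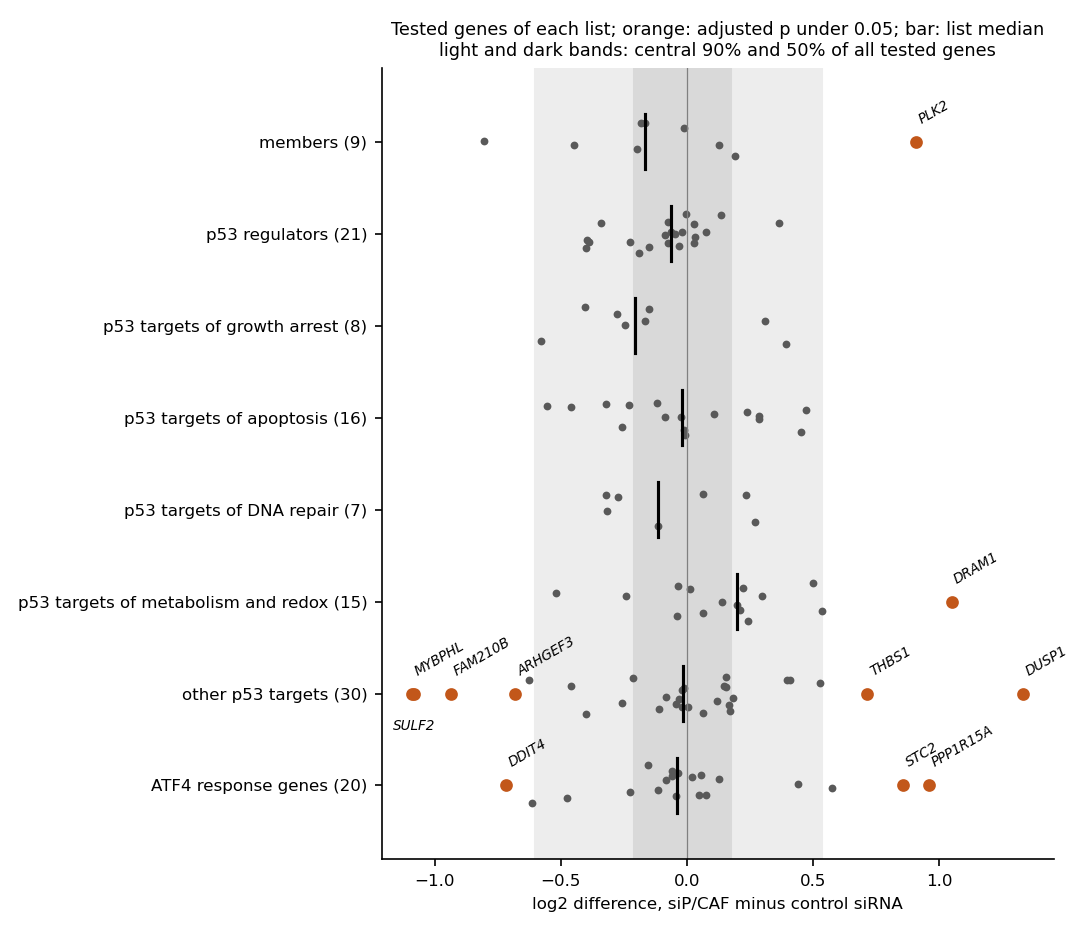
Log2 difference of siP/CAF minus control siRNA (x axis) for each tested gene of the members and 7 further lists (y axis, number tested in brackets), with called genes in orange and named, the list median as a bar, and the central 90% and 50% of all tested genes as light and dark bands. List medians lie between -0.21 and 0.20, and most genes fall within the light band.

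The genes most alike in pattern over the 6 arrays were found by Pearson's r on normalised values, with each gene's brightest probe. For PLK2 they were MYOF (0.999), FSTL1 (0.997) and GSK3B (0.995), and 606 genes had an r over 0.9. For GDF15 they were SP1 (0.988), NXPH4 (0.984) and GPC4 (0.983), among 150 genes over 0.9. For MDM2 they were LRRC8C (0.996), TRIM44 (0.995) and ZBTB26 (0.994), among 619 genes over 0.9. With 6 arrays in 2 groups, a difference between the groups alone raises such an r. MDM2 and the genes named for it were not called (limma, adjusted p = 0.630 and 0.507 to 0.646), and what raised their r was not tested. All these values describe these arrays only.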

How the data were processed

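Expression was measured in 6 Rh30 samples, 3 per group, on 1-colour Illumina HT-12 arrays. The deposited non-normalised table gives each probe's mean bead intensity, linear and not normalised, per the file headers. Beside it the deposited table gives a score under a p-value heading. That score rises with the intensity and was read as 1 minus the detection p. The deposited series matrix holds log2 values centred on 0 for each probe. Its scale and direction were found against the same arrays' signals (r of 0.933 to 0.970 over bright probes, those above 150 on every array; each column's median 0), and the sources used here do not give its normalisation. It served as an alternative.

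Signals were corrected by normexp with detection p-values, given an offset of 16, quantile normalised and log2 transformed (neqc, limma 3.58.1, R 4.3.3). Testing was by limma (lmFit, eBayes), without a block, over the 21232 probes that at least 3 arrays detected at a p under 0.05, with Benjamini-Hochberg adjustment. Of all probes, 30113 had 1 gene symbol, 8 several and 17202 none here. The array tables name no genome build, so coordinates belong to RefSeq promoters alone. A fold "at least" sets the bright group's mean against, per array, the higher of the probe's value and the lowest normalised value among detected probes. Correlation within a group ran from 0.981 to 0.994, and no array was a copy of another. Precision is limited by having 3 arrays a group. The procedure was tested on simulated data.

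Members and lists were chosen with earlier results of these data known. Named genes are KAT2B, all members, and in each list the 3 smallest p-values and all calls. To these come the 3 genes most like each of MDM2, GDF15 and PLK2 in pattern. ATF4, DDIT3, TP73 and the markers of muscle, rhabdomyosarcoma and other cell types were named outside that rule, after their values were seen. The p53 element allowance of 3 mismatches was also set after a first search. Alternatives changed the background correction, offset, scaling, source table, filter, weights, variance prior, probe choice and replicate block, or left out 1 array.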

Additional observations from a re-analysis of the deposited data

How the results depend on the processing

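The number of genes changed was 634 in the reported fit and 485 to 884 under the alternatives of processing other than array weights, which gave 1748, and the replicate block, which gave 442. Leaving out 1 array gave 209 to 720 genes, the lowest without siP/CAF array 1 and the highest without control array 3. The number of members changed was 1 in the reported fit. It was 2, with GDF15 lower beside PLK2, without background correction, with an offset of 50, with median scaling, with the matrix values, with array weights, with a trended and robust prior and with the mean of a gene's probes, and 0 to 2 with 1 array left out. MDM2, MDM4, SESN1, SESN2, ZMAT3, TP53I3 and RRM2B were called in none of the 16 alternatives. KAT2B was lower and called in all 16, from -2.91 to -2.26. The titles give both groups the numbers 1 and 2, and the third siP/CAF sample has none. Deviations from the group mean correlated at -0.17 and -0.44 for these pairs. Whether samples of one number were handled together is not stated, and 2 such values cannot settle it. With the replicate block 1 member, PLK2 (1.13, limma adjusted p = 0.0282), was called, and GDF15 had an adjusted p of 0.0537. Among the other p53 targets, MYBPHL and THBS1 were not called without the filter on dim probes (adjusted p = 0.108 and 0.0697 in limma), THBS1 with median scaling (0.0755), and SULF2 and ARHGEF3 with the block (0.0744 and 0.106). The number called was 2 to 7 in that list, 0 to 4 in the ATF4 list, 1 to 3 in the metabolic list, 0 to 2 in the apoptosis list, and 0 to 1 in the growth-arrest and regulator lists. A block for the chip was not run, since the tables name no chip. MDM2, SESN2 and the dimmer TP53I3 probe lie near background, which limits what can be seen of them.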
